A study of Homo sapiens with 6 samples.

Results

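The clustered histone genes were taken as the rows of the gene count table named H1 with a number, or H2AC, H2BC, H3C or H4C with a number, and 73 of the 20020 genes in the table are described here. They comprised 9 genes of the linker histone H1, 17 of H2A, 19 of H2B, 13 of H3 and 15 of H4. By RefSeq symbol, 55 lay in the cluster of chromosome 6 and 13 in the clusters of chromosome 1. The other 5 lay outside the clusters, namely H1-8 and H1-10 on chromosome 3, H1-7 and H4C16 on chromosome 12, and H2BC12L on chromosome 21. The name "clustered" therefore held for 68 of the 73.

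RNA-seq was done on HCT116, a colorectal carcinoma cell line, in 3 libraries of a CAD knockout line (CAD-KO2+IR) and 3 of a vector control line (sgVec+IR). CAD is the caspase-activated DNase that cuts chromatin in apoptosis, encoded by DFFB, and it was targeted with a lentiviral CRISPR-Cas9 plasmid. The study's methods give the cells as stable lines without saying whether they were clones. By the paper, cells of both groups had received 8 Gy of ionising radiation 24 h earlier, so no library here is from unirradiated cells. The sources do not say whether the 3 libraries of a group came from separate cultures, so p-values measure the spread between libraries, which may be technical. Whether fewer cells made a transcript or each cell made less of it cannot be told apart in bulk RNA.

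Core histones H2A, H2B, H3 and H4 form the octamer that DNA wraps around, and H1 binds the linker DNA between nucleosomes. Most genes of the clusters are copied into mRNA in S phase, when new DNA has to be packed, and their mRNA ends just after a conserved stem-loop in place of a poly(A) tail. The stem-loop is bound by SLBP, which guides end processing, translation and decay of the mRNA. Some of these genes can also give longer, polyadenylated transcripts that run past the stem-loop, while H1-10 makes polyadenylated mRNA outside S phase. The libraries were made with an mRNA kit from total RNA, and a kit that starts from the poly(A) tail sees the first kind of transcript poorly. Whether this kit started there is not given in the sources used here.

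The stem-loops shown here belong to 7 of the histone genes tested and to 3 that were counted but not tested (H2AC11, H4C8 and H4C16). They are given because counts are set beside the annotated transcript ends further on. An annotated end alone does not show whether a gene has a tailed mRNA. The sequences were read 5′ to 3′ from GENCODE 29 transcripts (GRCh38), with the 16 bases of the stem-loop in capitals and the bases that follow it in lower case.
H2AC6: GGCTCTTTTCAGAGCCcccctaccgtttca
H2AC25: GGCTCTTTTCAGAGCCacctactatctcga
H2AC11: GGCTCTTTTCAGGGCCacccacgtcttctc
H2BC15: GGCTCTTTTCAGAGCCactcagtcttccca
H2BC21: GGCTCTTTTCAGAGCCacccacctaatcac
H2BC5: GGCTCTTTTAAGAGCCacgcatgttttcaa
H3C6: GGCTCTTCTCAGAGCCaaccactttgtccg
H3C10: GGCTCTTTTCAGAGCCacccacatgcgcgc
H4C8: GGCCCTTTTCAGGGCCgcccacttttttca
H4C16: GGCCCTTTTCAGGGCCcccaaactgtcaca

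A stem-loop was found in the transcripts of 29 of the 69 histone genes with a GENCODE 29 model. No stem-loop was found in the transcripts of the other 40. Some of these models hold the coding sequence alone, such as H2BC12 with 381 bases, and leave no later sequence to search. Others are longer, such as H2BC11 with 950 bases and H1-10 with 1507. How far each of the 40 runs past the stop codon was not measured. In 23 of the 29, the transcript ran at least 100 bases past the stem-loop. It ran 1862 bases past it in H3C6, 1128 in H2AC6, 769 in H3C10 and 39 in H2BC5. The 8 H4 stem-loops had GGCCC as their first bases, while every H2A, H2B and H3 stem-loop found had GGCTC there.

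Many H2A and H2B genes are head-to-head pairs that share the short stretch between their starts. RefSeq starts gave 12 divergent pairs within 500 bases, over 11 distinct stretches. The stretches of 3 pairs are shown because the H2A gene of each was counted in sgVec+IR replicate 3 while its H2B partner was at 0 there (values further on). Capitals mark 3 motifs, each also matched as its reverse complement. CCAAT is the letters of a CCAAT box, TATAAA those of a TATA box, and ATTTGCAT those of the octamer bound by OCT1. Letters are those of the plus strand of GRCh38.p14 from RefSeq's promoter sequences, from the left gene to the right one.
H2BC4 to H2AC6, chr6:26123927-26124171: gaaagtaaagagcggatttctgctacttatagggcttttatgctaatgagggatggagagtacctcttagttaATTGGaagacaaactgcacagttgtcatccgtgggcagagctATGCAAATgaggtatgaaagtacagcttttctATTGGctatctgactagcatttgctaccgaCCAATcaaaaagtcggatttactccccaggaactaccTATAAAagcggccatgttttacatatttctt
H2BC11 to H2AC11, chr6:27132796-27133042: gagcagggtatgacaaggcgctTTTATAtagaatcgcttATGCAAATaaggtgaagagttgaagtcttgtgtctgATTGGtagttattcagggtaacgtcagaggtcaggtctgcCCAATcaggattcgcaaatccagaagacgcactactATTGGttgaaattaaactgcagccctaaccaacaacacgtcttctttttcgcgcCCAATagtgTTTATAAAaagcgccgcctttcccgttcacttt
H2AC25 to H2BC26, chr1:228457874-228458102: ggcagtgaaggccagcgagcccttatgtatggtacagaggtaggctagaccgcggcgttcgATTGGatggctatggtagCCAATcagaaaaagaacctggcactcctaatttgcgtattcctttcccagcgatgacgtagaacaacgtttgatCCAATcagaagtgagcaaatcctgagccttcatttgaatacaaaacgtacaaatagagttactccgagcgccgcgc

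In windows from 250 bases before to 50 bases after the RefSeq start, ATTTGCAT was in 14 of 18 H2B and 11 of 16 H2A promoters, in 1 of 11 H3 and in 0 of 13 H4 promoters, against 1.8% of 35116 promoters of all genes. CCAAT was in every H2A, H2B and H3 promoter in the table and in 3 of 13 H4 promoters, against 34.6% of all promoters. TATAAA was in 12 of 16 H2A, 12 of 18 H2B, 8 of 11 H3, 7 of 13 H4 and 4 of 9 H1 promoters, against 11.5% of all. Partners of a pair share much of their windows, so these promoters are not independent of each other.

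Library totals ran from 14032994 to 19574144 counts, and 12925 genes had enough counts to be tested. DFFB, the targeted gene, was at 10.03, 10.12 and 12.36 CPM in CAD-KO2+IR against 21.83, 22.93 and 20.95 in sgVec+IR, where CPM are counts for each 1000000 of the scaled library size. The groups did not overlap, and the log2 fold change (CAD-KO2+IR over sgVec+IR, as everywhere here) was -1.02 with a standard error of 0.193 and an adjusted p of 0.55 by edgeR's quasi-likelihood test. DESeq2 gave an adjusted p of 0.000458. The epithelial marker EPCAM was at 226 to 337 CPM, while VIL1 and LGALS4, of mature intestinal epithelium, were at most at 0.342 CPM. The T cell gene CD3E had no count in any library, and the collagen gene COL1A1 was at 10.93 to 47.85 CPM. One control library stood apart: sgVec+IR replicate 3 correlated with the other 5 at Pearson's r of 0.886 to 0.927 over genes, had 7561 genes at 0 against 4577 to 5232 elsewhere, and is therefore given separately throughout. CAD-KO2+IR replicate 2 was the next most distant, with r of 0.969 and 0.975 to its own group.

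Counts of the histone genes of the clusters were low in every library. Of the 73 histone genes, 29 were at 0 in all 6 libraries and 44 had at least 1 count. Every type had members without a count, with 4 H1, 8 H2A, 5 H2B, 7 H3 and 5 H4 genes at 0 throughout. A count of 0 over a library allows a level of up to 0.158 CPM in the deepest library and 0.212 CPM in the shallowest (3 counts, counting error only). The 73 genes together took 0.00425 to 0.00688% of the counts of a library. Only 11 of the 73 passed the filter on low counts, and of the 62 that did not, 33 had a count. The highest of those 33 was H2AC11, with 55 counts over the 6 libraries.

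**Figure D1:**
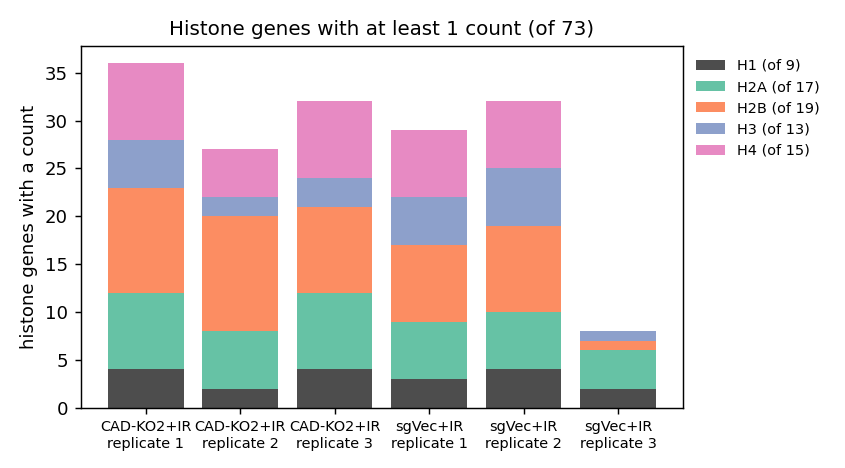
Number of histone genes with at least 1 count in each library, stacked by histone type, out of 73 genes. The 3 CAD-KO2+IR libraries held 36, 27 and 32, sgVec+IR replicates 1 and 2 held 29 and 32, and sgVec+IR replicate 3 held 8, with no H4 gene.

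The number of histone genes with a count separated sgVec+IR replicate 3 from the rest. It had 8, against 27 to 36 in the other 5 libraries, and they comprised 2 H1, 4 H2A, 1 H2B, 1 H3 and 0 H4 genes. Its total of 14032994 was close to the 14421581 of replicate 2, which had 32. The cause of the gap was not tested.

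Levels between genes were compared as CPM per kilobase of exon in GENCODE 29. H1-10, a replication-independent linker histone, had 16.3 CPM per kilobase over the 6 libraries and H2BC12 had 12.3, the last over a model that holds the coding sequence alone. H1-2 had 5.85, H2AC25 5.17, H2AC6 3.76, H2BC5 3.61, H2AC20 1.45 and H3C6 1.33. The remaining 3 tested genes, H3C10, H2BC21 and H2BC15, lay at 0.739, 0.562 and 0.249. Exon lengths of the tested genes ran from 381 bases in H2BC12 to 5477 in H2BC15, so this order also depends on the length of the models. H2AC6 and H2BC5 differed by less than the SD of H2AC6 between the sgVec+IR libraries.

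The first question was whether any histone gene differed between the irradiated knockout and control cells. None of the 11 tested passed the test. In the edgeR quasi-likelihood fit, 0 histone genes passed both thresholds (an adjusted p below 0.05 by Benjamini and Hochberg's method, and a change of 1.5-fold or more), where 0.0309% of all 12925 genes tested passed (1 higher and 3 lower). DESeq2 also called 0, where it called 0.364% of all genes. With the p before adjustment below 0.05 and a change of the same size, 1 histone gene was lower and 0 higher, where 1.42% of all genes were lower and 0.766% higher. The groups did not overlap in 1 histone gene with higher values in CAD-KO2+IR and in 1 with lower values, where 5.23% and 5.01% of all genes did so. The median log2 fold change of the 11 was 0.02, beside -0.01 over all genes tested.

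By type, the 3 H2A genes tested had log2 fold changes of -0.85 to -0.13 with a median of -0.77, and the 4 H2B genes had 0.02 to 1.18 with a median of 0.76. These medians followed 1 library, and without sgVec+IR replicate 3 they were -0.31 for H2A and 0.23 for H2B. The difference between the types was not tested. Medians were 0.14 for 2 H1 genes and 0.22 for 2 H3 genes. No H4 gene passed the filter. The filter asks for enough counts in 3 libraries, so an H2B or H3 gene at 0 in 1 control library passed partly through the CAD-KO2+IR libraries, and these medians describe the genes that passed and no others.

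**Figure D2:**
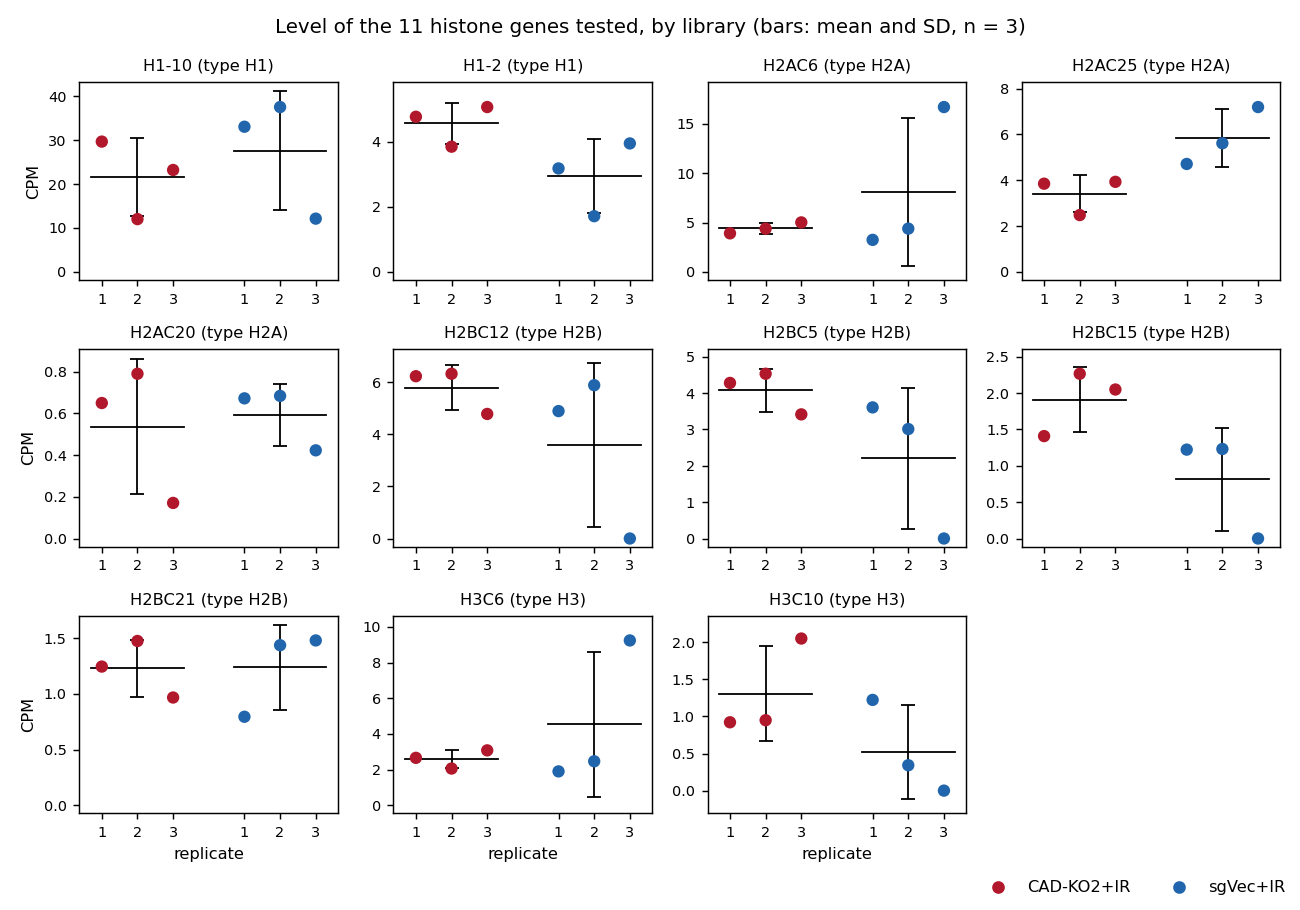
Level in CPM (linear axes, a separate scale for each gene) of the 11 histone genes tested, with 1 point for each library, the mean as a line and the SD as a bar (n = 3). sgVec+IR replicate 3 is the highest of the 6 for H2AC6 at 16.7 CPM and H3C6 at 9.24 CPM, and is at 0 for H2BC12, H2BC5, H2BC15 and H3C10.

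H1-10 had counts of 548, 228 and 408 in CAD-KO2+IR and 541, 549 and 172 in sgVec+IR. Its low libraries were CAD-KO2+IR replicate 2 and sgVec+IR replicate 3, at 12.02 and 12.13 CPM, where the other 4 lay between 23.2 and 37.6 CPM. The log2 fold change was -0.35 with a standard error of 0.478. Leaving out 1 library moved it to -0.71 (sgVec+IR replicate 3) or -0.06 (CAD-KO2+IR replicate 2), and voom with library weights gave -0.53 with an adjusted p of 0.0114, under the fold threshold. A gene on the opposite strand, H1FX-AS1, overlaps H1-10, and strand use in counting is not given in the sources used here, so reads of the pair cannot be told apart.

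H1-2 is a replication-dependent linker histone of the chromosome 6 cluster (chr6:26055787-26056428, minus strand, GENCODE 29). It had 88, 73 and 89 counts in CAD-KO2+IR and 52, 25 and 56 in sgVec+IR. In CPM these were 4.77, 3.85 and 5.07 against 3.18, 1.71 and 3.95, so the lowest knockout library lay just under the highest control library, which was replicate 3. The log2 fold change was 0.63 with a standard error of 0.353 and an unadjusted p of 0.12 (edgeR). Leaving out sgVec+IR replicate 3 gave 0.88 with an adjusted p of 0.407. Leaving out CAD-KO2+IR replicate 2 as well, a choice made after the data were seen, gave 0.99 with a standard error of 0.274 and an adjusted p of 0.00865, a call, where 1.06% of all genes were called higher. A voom fit that weights libraries by their quality also called it higher, at 1.04 with an adjusted p of 0.00916, where 1.64% of all genes were called higher. In both of these fits the weight of sgVec+IR replicate 3 was 0 or near it (0.0404 in voom). Over all alternatives the adjusted p of H1-2 ran from 0.00865 to 1.

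H1-3 and H1-4, further replication-dependent linker histones, had 5 and 7 counts in all. H1-7 had 2 counts, and H1-1, H1-5, H1-6 and H1-8 had none. H1-7 and H1-8 are known as linker histones of testis and oocyte.

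H2AC25 was the histone gene with the smallest unadjusted p in the comparison of the 6 libraries. It encodes an H2A protein at the distal chromosome 1 cluster (chr1:228456979-228457873, minus strand, GENCODE 29), and its GENCODE transcript runs 390 bases past the stem-loop shown above. It had 71, 47 and 69 counts in CAD-KO2+IR and 77, 82 and 102 in sgVec+IR. The levels were 3.42 ± 0.815 CPM and 5.84 ± 1.26 CPM (SD, n = 3), and every knockout library lay under every control library. The log2 fold change was -0.77 with a standard error of 0.313, an unadjusted p of 0.0438 and an adjusted p of 1.0 (edgeR), so it did not pass the adjusted threshold. Without sgVec+IR replicate 3 it was -0.59, with an unadjusted p of 0.065.

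H2AC6 was the H2A gene with the most counts, and its exons extend to chr6:26139116, far past the start at 26124145. It had 72, 83 and 88 counts in CAD-KO2+IR and 53, 64 and 237 in sgVec+IR. The value of 237 counts, 16.7 CPM, was 4.39 times the mean of the other 2 control libraries, and without it the 5 libraries lay between 3.24 and 5.01 CPM. The log2 fold change of -0.85 (standard error 0.627) turned to 0.22 (standard error 0.257) when that library was left out. H2AC20 had 12, 15 and 3 counts against 11, 10 and 6, with a log2 fold change of -0.13. The voom fit with library weights called it lower, at -1.42 with an adjusted p of 0.0441, where 3.51% of all genes were called lower. That fit gave CAD-KO2+IR replicate 3, the library with 3 counts, a weight of 6.75, against 1.79 and 0.154 for replicates 1 and 2. Leaving out CAD-KO2+IR replicate 3 gave 0.28, and no library held more than 15 counts. H2AC11 had 7, 0 and 5 counts in CAD-KO2+IR and 2, 2 and 39 in sgVec+IR, so sgVec+IR replicate 3 held 39 of its 55 counts.

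Among H2B genes, 3 of the 4 tested had no count in sgVec+IR replicate 3. H2BC12 had 115, 120 and 84 counts in CAD-KO2+IR and 80, 86 and 0 in sgVec+IR. H2BC5 had 79, 86 and 60 against 59, 44 and 0, and H2BC15 had 26, 43 and 36 against 20, 18 and 0. In the other 5 libraries the 3 genes held 80 to 120, 44 to 86 and 18 to 43 counts. Against the limit a count of 0 allows in that library (3 counts), the mean of sgVec+IR replicates 1 and 2 was at least 25.5-fold higher for H2BC12, at least 15.7-fold higher for H2BC5 and at least 5.80-fold higher for H2BC15. Of the 12303 genes with at least 10 counts in each of the other 5 libraries, 460 (3.74%) had no count in sgVec+IR replicate 3, and 3 of the 9 histone genes of that kind did. In each other library taken the same way, 0 of 6 histone genes had no count.

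The fitted differences of these H2B genes followed that library. With all 6 libraries the log2 fold changes were 0.67 for H2BC12 (standard error 0.723), 0.85 for H2BC5 (0.687) and 1.18 for H2BC15 (0.69). Without it they were 0.11, 0.30 and 0.64. H2BC15 was the only tested histone gene with every knockout library above every control library, at 1.41, 2.27 and 2.05 CPM against 1.22, 1.23 and 0 CPM. Its GENCODE model spans H2AC15 and other genes of the cluster (the model lists them under older symbols), so its reads cannot be assigned to the H2B sequence alone. H2BC21 was counted in every library, with 23, 28 and 17 counts against 13, 21 and 21, and its log2 fold change was 0.02, standard error 0.453.

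H3C6 had 49, 39 and 54 counts in CAD-KO2+IR and 31, 36 and 131 in sgVec+IR. The pattern was that of H2AC6, with sgVec+IR replicate 3 at 4.24 times the mean of the other 2 control libraries. At least a 2.5-fold excess in that library was seen in 2 of the 11 histone genes tested (H2AC6 and H3C6) and in 4.39% of all genes. The log2 fold change of H3C6 was -0.78 with all libraries and 0.26 without it. H3C10 had 17, 18 and 36 counts against 20, 5 and 0, and its log2 fold change was 1.22, standard error 0.863. It was 2.85 without sgVec+IR replicate 1 (unadjusted p of 0.0459 and adjusted p of 0.999, edgeR) and 0.68 without sgVec+IR replicate 3. Without replicate 1 the control libraries held 5 and 0 counts, so H3C10 passed the filter there only through the CAD-KO2+IR libraries. The p of that fit therefore cannot be read as support for a difference. H3C12 and H3C13 had 5 counts each, and 7 of the 13 H3 genes had none.

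H4 had the fewest counts of any histone type in every library. H4C12, its highest member, had 13, 3 and 20 counts in CAD-KO2+IR and 6, 4 and 0 in sgVec+IR. None of its windows of 100 bases is its own, so its counts are uncertain. The same holds for H4C14 and H4C15, while H4C5, H4C8 and H4C16 keep all of their windows to themselves. H4C16, outside the clusters, had 7, 0 and 2 counts against 4, 4 and 0. H4C8 had 1, 10 and 4 against 1, 0 and 0, and H4C5 had 9 counts in all. sgVec+IR replicate 3 held no H4 count, so the sum over 15 H4 genes there was below 0.212 CPM.

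**Figure D3:**
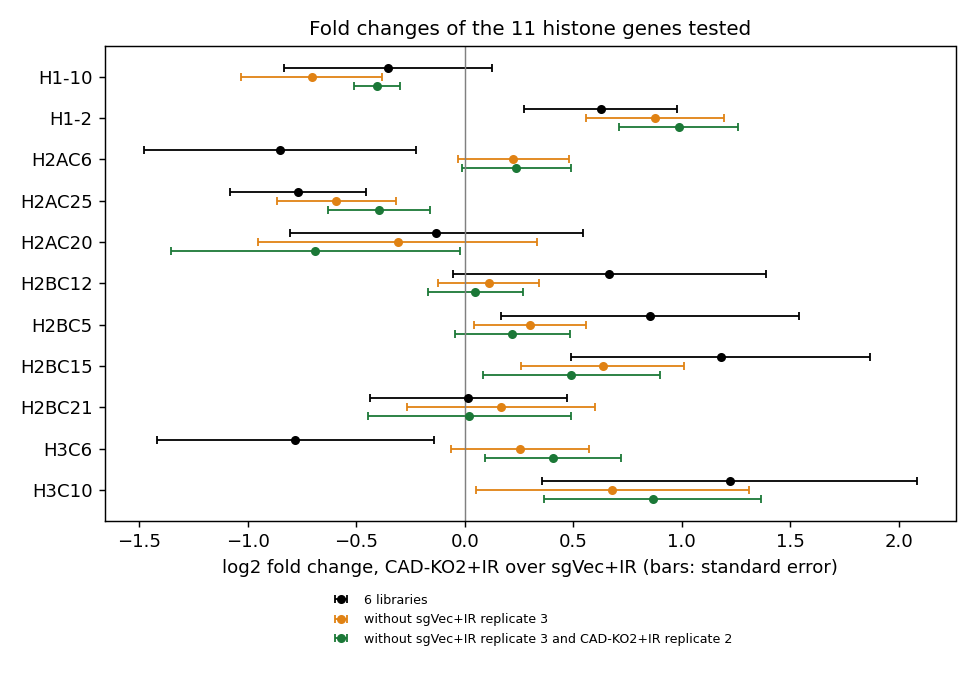
Log2 fold change of CAD-KO2+IR over sgVec+IR for the 11 histone genes tested (edgeR, bars are standard errors) with all 6 libraries, without sgVec+IR replicate 3, and without that library and CAD-KO2+IR replicate 2. H2AC6 moves from -0.85 to 0.22 and H3C6 from -0.78 to 0.26 when sgVec+IR replicate 3 is left out, while H1-2 and H2AC25 keep their sign in all 3 fits.

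Summed by type, the levels showed the same library. H2A genes together were at 9.38, 7.96 and 10.02 CPM in CAD-KO2+IR against 9.36, 10.95 and 27.08 in sgVec+IR. H2B genes were at 15.1, 16.1 and 12.98 CPM against 11.2, 13.1 and 1.48 CPM. H3 genes were at 3.85, 3.005 and 5.18 CPM against 3.36, 3.22 and 9.24 CPM. H4 genes were at 1.57, 0.949 and 1.94 CPM against 1.04, 1.09 and 0 CPM. In sgVec+IR replicate 3 the H2A sum was 2.67 times and the H3 sum 2.81 times the mean of replicates 1 and 2, while the H2B sum was 0.122 times and the H4 sum 0 times that mean. In the other 5 libraries the H2A and H2B sums each stayed within a narrow range, at 7.96 to 10.95 and 11.2 to 16.1 CPM.

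H1 genes summed to 34.6, 15.9 and 28.6 CPM in CAD-KO2+IR against 36.4, 39.6 and 16.1 in sgVec+IR, most of it H1-10. Without H1-10, the H1 sum was 4.71 ± 0.776 CPM in CAD-KO2+IR against 3.08 ± 1.001 CPM in sgVec+IR (SD, n = 3). The 68 genes in the clusters summed to 33.9 ± 1.83 CPM and 33.2 ± 7.44 CPM. The difference of these means, 0.03 on the log2 scale, was smaller than the spread between the control libraries. Without sgVec+IR replicate 3, whose H2A and H2B sums lay on opposite sides of the other control libraries, it was 0.22.

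**Figure D4:**
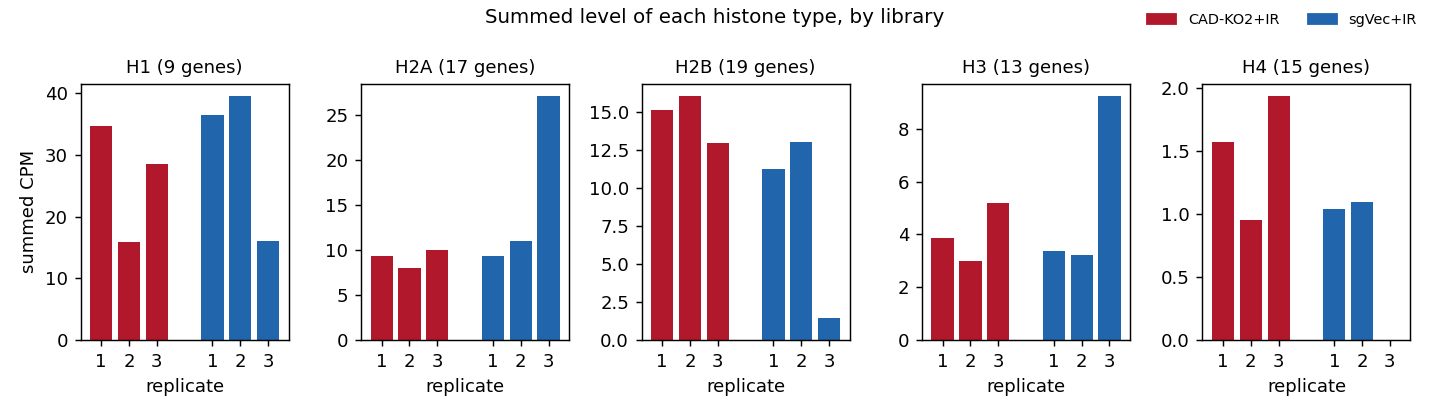
Summed CPM of all genes of each histone type in each library (linear axes from 0, a separate scale for each type). sgVec+IR replicate 3 has the highest H2A sum at 27.1 CPM and the highest H3 sum at 9.24 CPM, and the lowest H2B and H4 sums at 1.48 and 0 CPM.

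In 3 head-to-head pairs, chosen after their values were seen, the partners' counts lay far apart. In the pair H2BC4 and H2AC6, whose shared stretch is printed above, H2BC4 had 3, 6 and 5 counts in CAD-KO2+IR and 1, 2 and 0 in sgVec+IR, where H2AC6 had 53 to 237. In sgVec+IR replicate 3 the pair held 237 counts of H2AC6 and 0 of H2BC4. H2BC11, the partner of H2AC11, had 10, 4 and 6 counts against 1, 3 and 0, and in the same library the pair held 39 counts of H2AC11 and 0 of H2BC11. H2BC26, the partner of H2AC25, had 10, 3 and 9 against 7, 9 and 0, and the pair held 102 counts of H2AC25 and 0 of H2BC26. The partners H2BC21 and H2AC20 lay closer together, with 23, 28 and 17 counts of H2BC21 and 12, 15 and 3 of H2AC20 in CAD-KO2+IR, and 13, 21 and 21 against 11, 10 and 6 in sgVec+IR. Of H2AC15 and H2BC15, sgVec+IR replicate 3 held none of either.

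Counts were also set beside the annotated transcript ends. Of the 64 histone genes in the clusters with a GENCODE model, 22 have a transcript with a stem-loop that runs at least 100 bases past it. Of these, 17 had a count and 6 were tested (H2AC6, H2AC25, H2BC15, H2BC21, H3C6 and H3C10). Of the other 42, 23 had a count and 4 were tested (H1-2, H2AC20, H2BC12 and H2BC5). The 22 held 1933 counts in all and the 42 held 1413. In the 42, no stem-loop was found or the transcript that holds it ends within 100 bases of it. Transcripts without a stem-loop were not scored, so a gene of the 42 can have a longer annotated transcript. H2BC5, for one, has 2 transcripts that together span chr6:26158146-26171349. The split therefore does not separate genes with a tailed mRNA from genes without. A longer transcript that the annotation lacks cannot be seen either.

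In sgVec+IR replicate 3, levels moved with base composition over all genes. With genes split into 5 groups by the GC content of their longest transcript, a split chosen after the data were seen, the median log2 ratio of this library to the mean of replicates 1 and 2 was 0.80 in the group of lowest GC (30.2 to 41.0% GC), then 0.43, -0.05 and -0.67, and -1.25 in the highest (58.6 to 75.8% GC). H2AC6 and H3C6, which were high in that library, have 42.0 and 44.1% GC. H1-10, which was low, has 68.6%. H2BC12, at 0 there, has 61.2%, but H2BC15 and H2BC5, also at 0, have 39.5 and 47.5%, and H2AC25 and H1-2 lay above the other control libraries with 57.7 and 57.5%. These GC values come from unlike models. The longest transcript has 4137 bases in H2BC15, whose model spans other genes, and 381 bases in H2BC12. The part of base composition in these values was not tested.

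**Figure D5:**
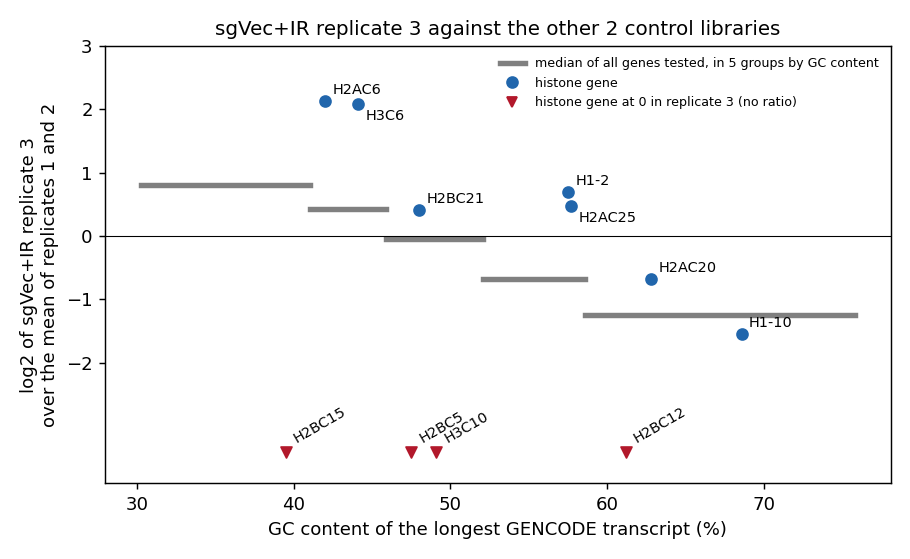
Log2 ratio of sgVec+IR replicate 3 to the mean of sgVec+IR replicates 1 and 2 (CPM) against the GC content of each histone gene's longest GENCODE transcript. Grey bars are the median of all genes tested in each of 5 groups by GC content, falling from 0.80 to -1.25, and triangles at the bottom mark the 4 histone genes at 0 in replicate 3, which have no ratio.

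The genes that make, process and degrade histone mRNA were read in the same fit. Of 32 tested genes of histone transcription and 3′ end processing, 0 were called and 0 had an unadjusted p under 0.05, where 2.85% of all genes had one (edgeR). The same held for 0 of 17 genes of histone mRNA decay, 0 of 27 histone chaperones and 0 of 25 S phase genes. Every CAD-KO2+IR library lay above every sgVec+IR library for 5 of the 32 (SNRPF, ZNF473, CSTF2, FIP1L1 and CCNE1) and below for 0, where 5.23% and 5.01% of all genes did so. The counts were 0 and 0 for decay, 2 and 0 for chaperones (HJURP and NAP1L4), and 2 and 0 for S phase genes (TYMS and MKI67). SLBP, the stem-loop binding protein, was at 143 ± 13.3 CPM in CAD-KO2+IR against 140 ± 17.3 in sgVec+IR (SD, n = 3), with a log2 fold change of 0.03. NPAT, the cyclin E/CDK2 substrate that switches on histone genes, was at 38.9 ± 11.9 and 45.0 ± 20.4 CPM, and CASP8AP2, a protein of the histone locus body, at 44.1 ± 7.75 and 43.0 ± 14.3 CPM. The differences of all 3 were smaller than the spread between libraries. The median log2 fold change of the lists in this paragraph lay between -0.04 and 0.02.

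Of 10 tested replication-independent histone genes, 0 were called and 0 had an unadjusted p under 0.05. Their median log2 fold change was -0.16, with 2 fitted higher and 8 lower, beside -0.01 over all genes tested. H1-10 belongs to this list as well. H3-3B, which encodes H3.3, was at 833, 786 and 800 CPM in CAD-KO2+IR against 915, 905 and 873 in sgVec+IR. Its groups did not overlap, with a log2 fold change of -0.15 and an unadjusted p of 0.209 (edgeR). H3-3A, the other H3.3 gene, had a log2 fold change of -0.16. H2AZ1 was at 567 CPM in sgVec+IR replicate 3 and between 253 and 319 CPM in the other 5 libraries, while H2AX, the H2A variant phosphorylated at DNA breaks, was at 50.6 CPM there and between 77.2 and 136 CPM elsewhere. The chaperones ASF1B and CHAF1A, which pass new H3 and H4 to replicating DNA, were at 0.579 and 0.496 times the mean of the other control libraries in that library.

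Sequence shared between histone genes limits single values. Among genes with a GENCODE model, 8 have no window of 100 bases that occurs in no other gene (H2AC15, H2BC12L, H3C4, H3C14, H3C15, H4C12, H4C14 and H4C15), and 15 have such windows over less than 50% of their transcript. Of the 8, 5 had no count in any library, and reads that fit several copies may have been left out of the counts. H2BC12 keeps 71.6% of its windows of 100 bases to itself, and H1-2, H3C6, H3C10, H2AC6, H2AC25 and H2BC5 all of them. The model of H2BC5 overlaps AL353759.1 and LARP1P1, 1 on its own strand and 1 on the opposite strand. Windows do not show whether reads of such an overlap belong to H2BC5.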

How the data were processed

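Counts per gene were deposited by the authors for 6 libraries. Reads had been cleaned with fastp and counted with featureCounts (version 1.5.0-p3), without normalization. The aligner, annotation, strand setting and human build are not given in the sources used here (the submitters' processing notes name the mouse build mm10, while gene identifiers are human). Columns were matched to samples by title. The members and lists were chosen with earlier results of these data known, and 1 gene that meets the naming rule is not reported here.

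From the counts, edgeR 4.0.16 in R 4.3.3 kept genes by filterByExpr (minimum count 10, minimum total 15), scaled libraries by TMM and compared the groups by the quasi-likelihood test (legacy set to FALSE), with Benjamini-Hochberg adjustment over 12925 genes. A call needed an adjusted p below 0.05 with a change of 1.5-fold or more, as in the paper's methods. CPM are counts for each 1000000 of the TMM-scaled total of the genes tested. DESeq2 1.42.0, limma 3.58.1 (voom, with and without library weights), other normalizations, filters, a replicate block and each library left out were alternatives. With 3 against 3, an exact permutation test of a single value cannot go below 0.1, so none was used. The scripts were tested on simulated data. Named genes were the 4 most abundant of each type, those past a threshold and those outside the clusters. Members were matched to GENCODE 29 by identifier (69 of 73) and to RefSeq by symbol (73 of 73). Stem-loops were searched in each transcript by the histone consensus (GG, 3 pyrimidines, TT, a pyrimidine, T, any base, A, 3 purines, CC), keeping the last match.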

Additional observations from a re-analysis of the deposited data

How the results depend on the processing

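Counts of called histone genes stayed at 0 higher and 0 lower under every alternative except voom with library weights (1 higher, H1-2, and 1 lower, H2AC20) and the fit without both sgVec+IR replicate 3 and CAD-KO2+IR replicate 2, added after the data were seen (1 higher, H1-2). Past the unadjusted p, the higher count was 3 with library weights, 1 with no filter on low counts (H2AC14, with 6, 3 and 1 counts against 0 in every control library) and 2 without both libraries. The lower count was 0 with no filter, with the default (legacy) quasi-likelihood fit, with the replicate block and without both libraries. Leaving out each library in turn gave 0 to 1 higher, 0 to 1 lower, 1 to 3 not overlapping and higher, and 1 to 2 not overlapping and lower. The shares of all genes past the unadjusted p or without overlap in these alternatives are not given here. These counts therefore cannot be read as a result about the histone genes.

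The median log2 fold change of all histone genes tested was 0.64 with no filter (44 genes) and 0.23 without both libraries, with 0.024 to 0.335 over single libraries left out. For H2A it was -0.46 with voom, -0.40 with library weights, -0.20 with no filter and -0.40 without both libraries, with -0.90 to -0.31 over single libraries left out. For H2B it was 2.303 with voom, 1.81 with no filter, 0.06 with library weights and 0.13 without both libraries, with 0.23 to 1.19 over single libraries left out. For H3 it was 0.90 with voom, 0.87 with library weights, -0.74 with no filter, -0.79 with at least 1 CPM in 3 libraries and 0.64 without both libraries, with -0.072 to 0.84 over single libraries left out. In the clusters it was 0.24 with library weights, 0.68 with no filter and 0.24 without both libraries, with 0.26 to 0.69 over single libraries left out. The summed H2A level differed by -0.061 and the H3 level by 0.46 on the log2 scale without both libraries, and all genes in the clusters by 0.27. Over single libraries left out the range was -1.06 to -0.15 for H2A and -0.65 to 0.29 for H3, and -0.079 to 0.23 for all genes in the clusters. The cause of these shifts was not tested beyond the library or the filter that each setting changes.

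Signs turned for H2AC6 (0.33 with library weights, 0.24 without both libraries, -1.24 to 0.22 over single libraries), H3C6 (0.45, 0.41 and -1.17 to 0.26), H2AC20 (-0.51 to 0.28 over single libraries), H2BC12 (-0.03 with library weights) and H2BC21 (-0.006 with DESeq2, -0.032 with library weights, -0.012 with library size normalization, -0.005 with the legacy fit, and -0.23 to 0.17 over single libraries). H1-2 reached 1.04 with library weights and 0.99 without both libraries, and H2AC20 reached -1.42 with library weights and -0.69 (not called) without both libraries. H1-10 had an adjusted p of 0.00578 without both libraries, at a log2 fold change of -0.41, under the fold threshold. DFFB was called with DESeq2 (-1.02), with library weights (-0.92) and without both libraries (-0.996), with -1.11 to -0.95 over single libraries left out.

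Replicates of both groups are numbered 1, 2 and 3, and the labels do not say whether equal numbers mark pairs. Deviations of same-numbered libraries from their group means correlated at 0.468, -0.545 and -0.379. The highest value across the groups was 0.552, between CAD-KO2+IR replicate 2 and sgVec+IR replicate 3. These 2 libraries stood apart and weigh on every deviation from a group mean, so the correlations cannot show whether libraries were paired. The replicate block called 0 histone genes higher and 0 lower. The filter on low counts left 62 of 73 histone genes out of the test, 33 of them with a count. With no filter 44 were tested, and 29 had no count to test.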
